A study of Homo sapiens with 46 samples.

Results

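This comparison covers the RNA-seq libraries of human HEK293 Flp-In T-REx cells transfected with siRNA against 4EHP, set against those of cells transfected with control siRNA. HEK293 Flp-In T-REx is an embryonic kidney line with a site for inserting a transgene under tetracycline control. The members are 4 of the 46 libraries of the series, 2 for each siRNA, and were chosen by their labels. Both groups were transfected at 75 nM for 72 h and again at 30 nM for 24 h, and no transgene is recorded for them. The sources used here give neither the siRNA sequences, nor the number of separate cultures, nor the depth of the knockdown. The p-values therefore measure only how far these libraries vary, and that variation may be technical. A further 4 RNA-seq libraries, 2 with combined siRNA against ASCC3 and 4EHP and 2 with ASCC3 siRNA alone, carry the same 4EHP siRNA step on another background and share no library with the comparison.

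4EHP, the product of EIF4E2, is a relative of the cap-binding protein eIF4E that binds the mRNA cap without recruiting the translation machinery, and so represses initiation. With the scaffold proteins GIGYF1 and GIGYF2 it is recruited to mRNAs on which ribosomes have collided, and it also acts in silencing by microRNAs and by proteins that bind AU-rich elements. ASCC3 is a helicase that takes apart collided ribosomes. The RefSeq annotation of GRCh38.p14 places EIF4E2 at chr2:232550689-232583644 with 7 transcripts. The deposited files list Ensembl transcript IDs with a coding length and a count and do not pair them with genes. Transcripts of EIF4E2 and of its partners were therefore not identified here, the target of the siRNA could not serve as a check of the labels, and the transcripts below are given by their coding lengths, with an ID for 4 of them. Whether any of these transcripts, the largest fall included, belongs to EIF4E2 itself was not tested.

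The isoforms of a locus carry largely the same reads in these files. Transcripts whose counts moved together were joined, and the one with the most RNA-seq counts stood for the group, which left 54329 units out of 97742 transcripts with any count. Over these units the libraries held 15770798 and 11572462 counts with 4EHP siRNA, against 15410146 and 19108893 counts with control siRNA. Levels are given in counts-per-million units (CPM), normalised for library composition, except for disomes and single isoforms, whose CPM are per library total without that normalisation.

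The libraries labelled 4EHP siRNA replicate 2 and ASCC3 siRNA replicate 2 stood apart from the other 6 RNA-seq libraries. Over 10858 transcripts with a mean of at least 4 on the log2 CPM scale, the log2 ratio of replicate 2 to replicate 1 had an SD of 0.37 with 4EHP siRNA, 0.12 with control siRNA, 0.19 with combined siRNA and 0.27 with ASCC3 siRNA. The replicates differed by more than 1.5-fold for 993 of these transcripts with 4EHP siRNA, against 0 with control siRNA. The same count was 51 with combined siRNA and 398 with ASCC3 siRNA. The comparison with control is therefore given with both 4EHP libraries and for each of them alone. For single transcripts mostly the values of both libraries are given, and fold changes of each alone only for some.

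With both libraries, 6 of 33265 transcripts tested fell after 4EHP siRNA and 0 rose, at an adjusted p under 0.05 in edgeR's quasi-likelihood test with Benjamini-Hochberg adjustment. That is 0.018% of those tested. An unadjusted p under 0.05 was reached by 2198 transcripts, and DESeq2 called 13. The fit without 4EHP replicate 2 gave 5 calls, and the fit without 4EHP replicate 1 gave 1699. Leaving out control replicate 1 or 2 gave 2 calls each, and leaving out combined replicate 1 or 2 gave 3 and 2. In the 4 libraries fitted on their own, 1 transcript passed. In a fit without both libraries that stood apart, 19 transcripts were higher and 26 lower. With a covariate taken from the replicate differences, added after seeing the data, 25 were higher (0.0752%) and 46 lower (0.138%), 0.213% in all, and the 6 were among them.

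The largest fall was that of ENST00000258416.8, a coding sequence of 246 codons. It stood at 3.79 and 3.16 CPM in the 4EHP siRNA libraries, from 58 and 36 counts, and at 43.6 and 46.4 CPM in the control siRNA libraries, from 648 and 855 counts. Both 4EHP libraries lay far below both control libraries and close to each other. The mean with 4EHP siRNA was 3.48 ± 0.45 CPM, against 45.0 ± 1.95 CPM with control siRNA (SD, n = 2 each), or 7.73% of the control. The fitted log2 fold change was -3.68 (SE 0.20), with an edgeR adjusted p of 8.57e-08. All of its 8 joined isoforms, of 189 to 246 codons, had log2 ratios between -3.80 and -3.56. The call held under all 22 other settings tried, with a log2 fold change between -3.85 and -3.49.

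The same transcript stood at 5.03 and 4.59 CPM with combined siRNA, against 41.8 and 29.9 CPM with ASCC3 siRNA. The log2 fold change of that pair was -2.90 (SE 0.19, edgeR adjusted p = 1.47e-06). The difference between the 2 fold changes was 0.78 on the log2 scale (SE 0.27), and the edgeR test of it did not pass, with an adjusted p of 0.647.

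Libraries of footprints from single ribosomes (monosomes) and from pairs of touching ribosomes (disomes) gave different values for this transcript. Its monosome counts stood at 34.97 and 19.98 CPM with 4EHP siRNA, against 32.7 and 35.2 CPM with control siRNA. The groups overlapped, and the log2 fold change of -0.35 (SE 0.54) did not pass in edgeR, with an adjusted p of 0.883. With combined siRNA the monosome counts stood at 42.8 and 16.0045 CPM, against 19.96 and 36.6 CPM with ASCC3 siRNA, so these groups overlapped too and 1 combined library was the lowest of the 8. Its disome counts stood at 8.53 and 2.31 CPM with 4EHP siRNA, from 6 and 1 counts, against 168 and 93.0 CPM with control siRNA, from 248 and 72 counts. With combined siRNA the 2 disome libraries held 8.37 and 17.0 CPM, against 150.6 in the single ASCC3 siRNA disome library. Disome counts were thus low in every library with 4EHP siRNA, while monosome counts overlapped those of the matched libraries without it.

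The monosome counts differed in how they were spread over the isoforms. With 4EHP siRNA the 246-codon isoform had 113 and 89 monosome counts and the 189-codon isoform 112 and 83. With control siRNA the 246-codon isoform had 215 and 210 counts and the 189-codon isoform 163 and 170. The longest isoform thus had 1 and 6 more counts than the shortest with 4EHP siRNA, or 0.300 and 1.32 CPM, against 52 and 40 more with control siRNA, or 7.80 and 6.62 CPM. With combined siRNA the excess was 2 and 6 counts, against 6 and 44 counts with ASCC3 siRNA. In monosomes of 4EHP siRNA cells the longest and the shortest isoform therefore had nearly equal counts, whereas in RNA-seq the 246-codon isoform had 58 and 36 counts and the 189-codon isoform 37 and 18. Where in the coding sequence these reads lay was not analysed here, so whether the monosome counts are ribosome footprints or other short reads at a single spot, such as the siRNA itself, was not tested.

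**Figure D1:**
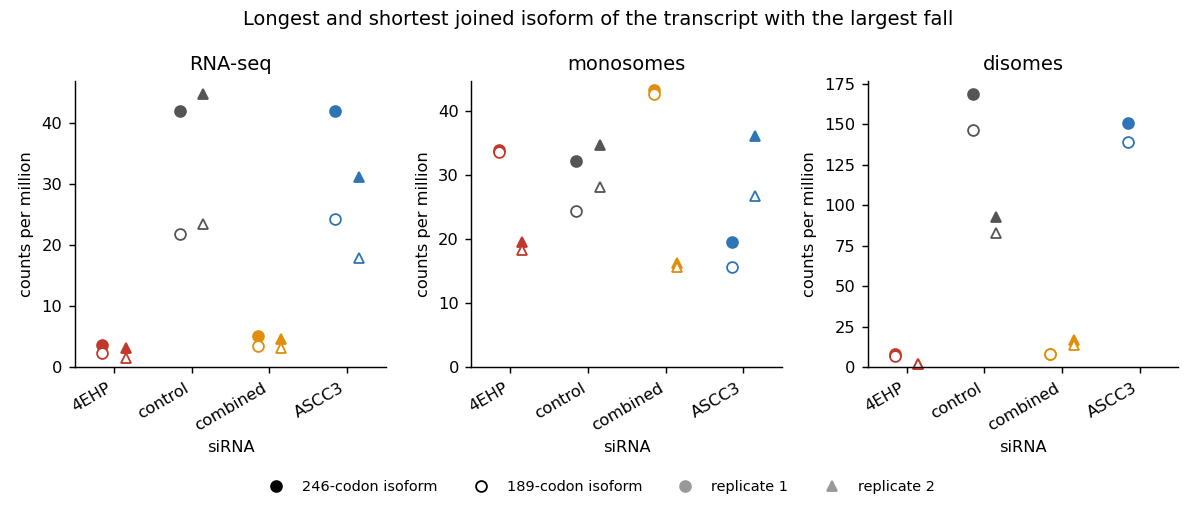
Levels, as CPM, of the longest (246 codons, filled) and shortest (189 codons, open) joined isoform of ENST00000258416.8 in RNA-seq, monosomes and disomes, by siRNA; circles are replicate 1 and triangles replicate 2. RNA-seq and disome values are low in both 4EHP siRNA and both combined siRNA libraries, while in their monosome libraries the 2 isoforms lie almost on top of each other at 15.7 to 43.4 CPM.

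A second fall of more than 2-fold was that of ENST00000458549.7, with 381 codons. It stood at 7.26 and 8.61 CPM with 4EHP siRNA and at 24.8 and 24.9 CPM with control siRNA. The groups did not overlap, and the mean with 4EHP siRNA was 31.9% of the control. The log2 fold change was -1.65 (SE 0.17), with an edgeR adjusted p of 0.000611. Its 4 joined isoforms, of 120 to 381 codons, had log2 ratios from -1.75 to -1.58. Combined siRNA gave 9.78 and 9.31 CPM, against 30.8 and 24.5 CPM with ASCC3 siRNA, and this fall also passed in edgeR (log2 fold change -1.54, SE 0.16, adjusted p = 0.00115). Monosome footprints fell with the RNA, to 2.48 and 3.59 CPM with 4EHP siRNA, against 7.92 and 9.89 CPM with control siRNA (log2 fold change -1.501, SE 0.30, edgeR adjusted p = 0.00242). The RNA-seq call was lost only in the fit of the 4 libraries alone, with an adjusted p of 0.142.

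The other 4 transcripts that passed changed less or rested on few counts. The 771-codon transcript stood at 186 and 179 CPM with 4EHP siRNA, against 333 and 327 CPM with control siRNA. Its log2 fold change was -0.85 (SE 0.10, edgeR adjusted p = 0.00400), and its monosome footprints fell by 0.77 on the log2 scale. A 180-codon transcript listed 7 lines from it stood at 38.8 CPM in both 4EHP siRNA libraries, against 70.4 and 69.8 CPM with control siRNA. Its log2 fold change was also -0.85 (SE 0.12, edgeR adjusted p = 0.0159), and it may share reads with the 771-codon transcript, in which case the 2 are not separate findings.

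The 336-codon transcript stood at 16.1 and 11.2 CPM with 4EHP siRNA, against 27.3 and 32.4 CPM with control siRNA. Its log2 fold change was -1.12 (SE 0.17, edgeR adjusted p = 0.0406), and the change in monosomes was -0.99. A 122-codon transcript had only 6 and 7 counts with 4EHP siRNA, against 53 and 69 counts with control siRNA. Its log2 fold change was -2.88 (SE 0.45, edgeR adjusted p = 0.0434). It is listed 4 lines from the 246-codon transcript, so it too may share reads with it. Without either control library, or without combined replicate 2, none of these 4 passed. Their adjusted p over those 3 fits ran from 0.0523 to 0.998.

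Of the 6, all lay lower in both combined siRNA libraries than in both ASCC3 siRNA libraries, and 2 passed in that pair, the 246-codon and the 381-codon ones. Over the 10858 transcripts with a mean of at least 4 on the log2 CPM scale, 25.5% lay that way round in that pair. The 246-, 381- and 122-codon transcripts lie below that level and are not among the 10858. In monosomes 5 of the 6 could be tested, and 4 passed as lower, against 0.445% of the 28318 transcripts tested there (0.805% in either direction). The 771- and 180-codon transcripts, which may share reads, are both among the 4. Against the ASCC3 siRNA libraries, in a comparison that uses the same 4EHP libraries, all 6 had negative fold changes and 5 passed as lower. Of all transcripts, 0.571% were called lower there and 2.07% in either direction. The transcript that did not pass was the 180-codon one, with an edgeR adjusted p of 0.0682.

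**Figure D2:**
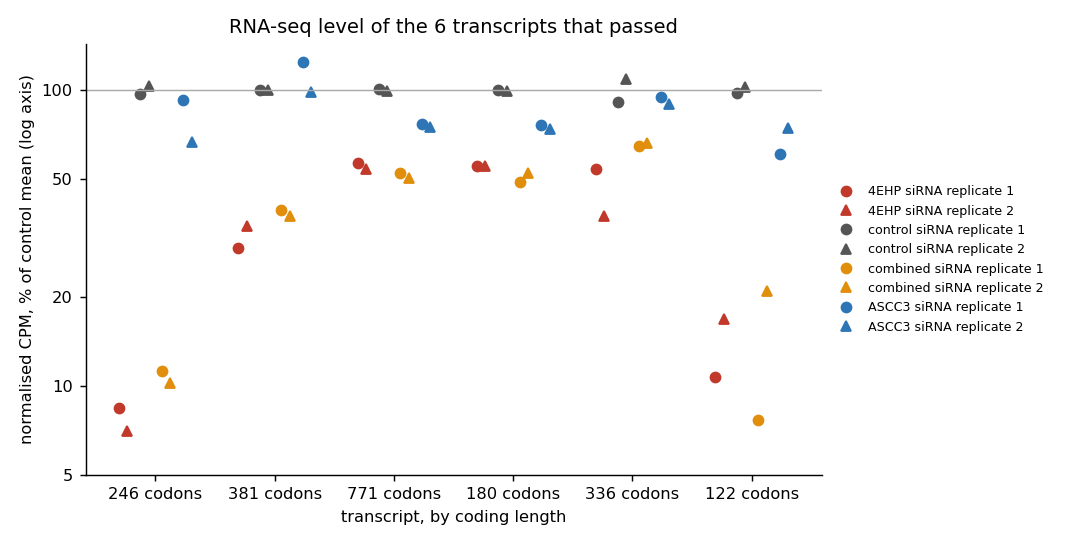
RNA-seq level of each transcript that passed, as a percentage of its control mean on a log axis, in the 8 RNA-seq libraries; circles are replicate 1 and triangles replicate 2. In all 6 the 4EHP siRNA libraries lie below the control siRNA libraries, and the combined siRNA libraries below the ASCC3 siRNA libraries.

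Taken alone, 4EHP replicate 1 was close to the control libraries. Its log2 ratio to the control mean had an SD of 0.15 over the 10858 transcripts, and 31 of them (0.286%) lay beyond 1.5-fold. Against control, 1 transcript was higher and 4 were lower of 34631 tested in edgeR, or 0.0144% in all (0.00289% and 0.0116%). These calls rest on 1 library, assumed to vary like the other groups. An unadjusted p under 0.05 was reached by 1547, and DESeq2 called 6. The 4 lower ones were the 246-, 381-, 771- and 180-codon transcripts named above. The higher one was ENST00000216117.9, with 289 codons.

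Replicate 2 alone differed from control far more widely. Its log2 ratio to the control mean had an SD of 0.37, and 1011 transcripts (9.31%) lay beyond 1.5-fold. In edgeR 928 transcripts were higher (2.68%) and 771 lower (2.23%) of 34640 tested, 4.9% in all, and DESeq2 called 1050. These counts too rest on a single library under that assumption. They also depend on the controls, since 304 calls were made without control replicate 1 and 152 without control replicate 2. Without either ASCC3 replicate the count was 4598 or 4518, and without either combined replicate 1023 or 997.

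The transcripts called in replicate 2 alone had little in common with replicate 1. Of those called higher, 921 were also tested in the fit of both libraries, with a median log2 fold change of 0.95 in replicate 2 and 0.06 in replicate 1. For the 771 called lower, the medians were -0.72 in replicate 2 and -0.09 in replicate 1. Over all 33265 transcripts both medians were near 0, at -0.02 in replicate 2 and 0.00 in replicate 1. The replicate 2 fold changes were used to choose these transcripts and are given as a description.

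The same transcripts differed between the ASCC3 siRNA replicates, which the choice did not use directly. Of the 921 called higher, 868 were also higher in ASCC3 replicate 2 than in ASCC3 replicate 1, with a median log2 ratio of 0.45. Of the 771 called lower, 109 were higher in ASCC3 replicate 2, with a median of -0.21. Among all tested, 16521 of 33265 were higher there, with a median of 0.00. Across the 10858 transcripts the replicate difference of 4EHP siRNA correlated with that of ASCC3 siRNA at a Pearson r of 0.72, with that of control siRNA at -0.15 and with that of combined siRNA at -0.23. These correlations run across transcripts, which are not independent replicates, and are given as a description of 2 libraries a group.

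The monosome libraries of 4EHP siRNA did not differ between replicates in this way. The monosome log2 ratio of 4EHP replicate 2 to replicate 1 correlated with the RNA-seq one at -0.05 over 10829 transcripts. Of the 921 transcripts called higher in RNA-seq replicate 2, 846 were tested in monosomes, where 11 were higher and 4 lower with 4EHP siRNA and the median log2 fold change was 0.03. Of the 771 called lower, 753 were tested, with 2 higher, 47 lower and a median of -0.07. Over all 28318 monosome transcripts, 0.360% were higher and 0.445% lower. Each of the 2 sets thus held a larger share of monosome calls in its own direction than all transcripts did. Among the 10829 with a mean RNA-seq level of at least 4 on the log2 CPM scale, 75 were higher and 106 lower in monosomes. RNA quality, library preparation and culture could not be compared between the replicates from the sources used here, and their part in the difference was not tested.

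**Figure D3:**
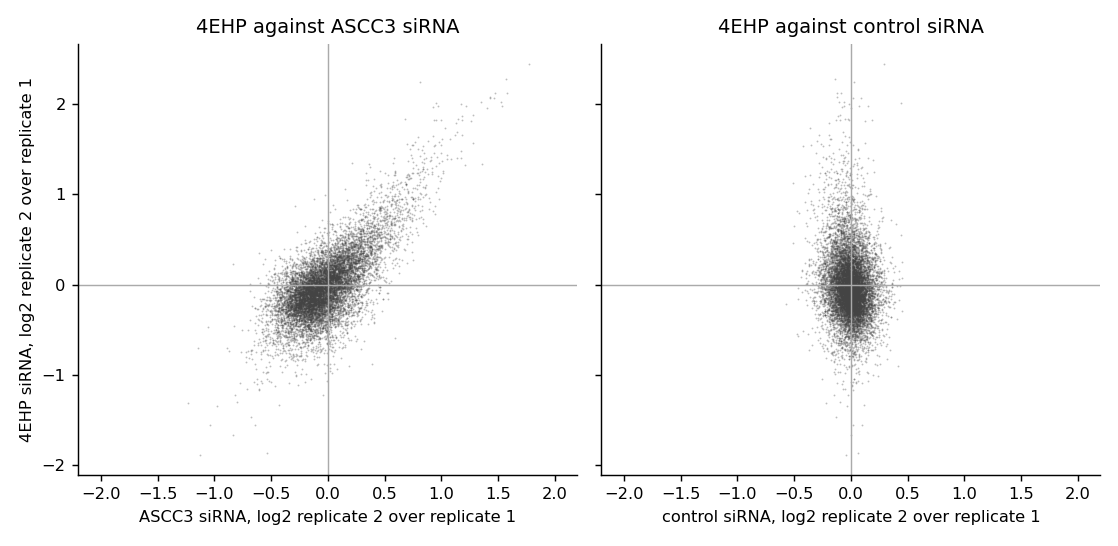
Log2 ratio of replicate 2 to replicate 1 with 4EHP siRNA (vertical axis) against the same ratio with ASCC3 siRNA (left) and with control siRNA (right) for 10858 transcripts, 1 point each. The points run along a diagonal with ASCC3 siRNA (r = 0.72) and stand in a narrow upright band with control siRNA (r = -0.15).

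The difference between the replicates followed coding length. In replicate 1 the median log2 ratio to the control mean was -0.01 for 1411 transcripts of up to 150 codons, 0.01 for 4037 above that and up to 400 codons, -0.01 for 4450 above that and up to 1200 codons and -0.03 for 960 longer ones. In replicate 2 the medians in the same order were -0.17, -0.11, 0.00 and 0.20. Short coding sequences thus lay lower and long ones higher in replicate 2 only. The ratio of ASCC3 replicate 2 to ASCC3 replicate 1 had medians of -0.19, -0.11, 0.01 and 0.18 over these classes.

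Calls in replicate 2 cannot be set directly against these medians. The calls cover all 33265 tested transcripts, and the medians only the 10858 with a mean of at least 4 on the log2 CPM scale. Up to 150 codons these are 11546 and 1411 transcripts, and over 1200 codons 1500 and 960. The part of transcript level in the shares below was not tested. The share of transcripts called higher rose from the shortest class to the longest. The share called lower was smallest in the longest class but was not largest in the shortest. It was largest above 150 and up to 400 codons, and up to 150 codons it was close to that of all transcripts. Of 1500 tested transcripts over 1200 codons, 130 were higher (8.67%) and 4 lower (0.267%), beside 2.77% and 2.32% of all 33265. Of 11546 transcripts of up to 150 codons, 148 were higher (1.28%) and 259 lower (2.24%). The Spearman correlation of the log2 ratio to control with coding length was 0.34 in replicate 2 and -0.06 in replicate 1, across transcripts and without a test.

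**Figure D4:**
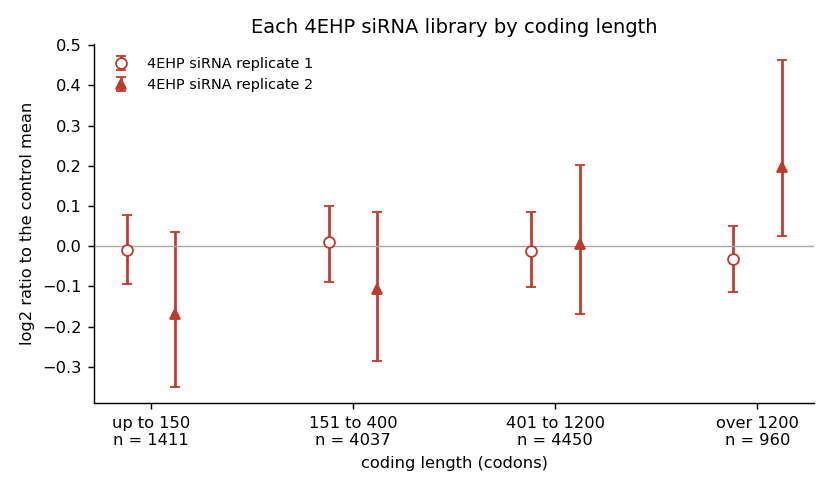
Median log2 ratio of each 4EHP siRNA library to the control mean in 4 classes of coding length, with bars from the lower to the upper quartile of transcripts and n the number of transcripts. Replicate 1 stays near 0 in every class, while replicate 2 runs from -0.17 in the shortest class to 0.20 in the longest.

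The share of all counts on coding sequences of over 1200 codons was 9.57% and 11.98% in the 4EHP siRNA libraries, against 9.80% and 9.74% in the control siRNA libraries. Coding sequences of up to 150 codons took 16.5% and 15.6%, against 16.4% and 16.5%. Wilson 95% intervals of these shares reach at most 0.0279 percentage points to either side and cover counting error only. The mean shares differed by 1.01 percentage points for the longest class and by -0.33 for the shortest. Exact two-sided permutation tests gave p = 1 for each of the 4 classes, where 2 libraries against 2 cannot go below 1 in 3. Without 4EHP replicate 2 the differences were -0.20 and 0.12, so both changed sign.

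Non-overlap of the 4EHP and control libraries was common. Among the 10858 transcripts, 1871 (17.2%) were higher in both 4EHP libraries than in both control libraries and 2603 (24%) were lower, 41.2% in all. The 12 largest fitted fold changes in each direction among these were examined one by one. Positive ones ran from 1.01 to 1.503 on the log2 scale, and none passed, with edgeR adjusted p from 0.259 to 0.774. In 11 of these 12, replicate 2 was above replicate 1, by up to 4.21-fold.

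The largest of them, a 1139-codon transcript, stood at 16.7 and 68.4 CPM with 4EHP siRNA, against 15.2 and 14.5 CPM with control siRNA. Replicate 1 was thus hardly above the controls, and the fold change rests on replicate 2. With combined siRNA it had 16.3 and 14.5 CPM, against 17.0 and 49.1 CPM with ASCC3 siRNA, where replicate 2 again stood out. All 12 were higher in ASCC3 replicate 2 than in ASCC3 replicate 1, beside 4532 of the 10858 transcripts. A 595-codon transcript gave the same picture, with 13.1 and 55.1 CPM after 4EHP siRNA, against 12.4 and 12.5 CPM with control siRNA. An 813-codon transcript had 31.4 and 84.6 CPM, against 29.9 and 26.1 CPM.

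The remaining transcript of the 12, ENST00000216117.9 with 289 codons, was high in both 4EHP libraries. It stood at 42.1 and 28.0 CPM with 4EHP siRNA, against 12.6 and 14.5 CPM with control siRNA, and the mean was 259% of the control. Its log2 fold change of 1.37 (SE 0.24) did not pass in edgeR with both libraries, at an adjusted p of 0.259. It passed under 7 of the 19 alternatives that kept both 4EHP libraries, among them DESeq2 (adjusted p = 9.73e-05), limma voom (adjusted p = 0.0376) and edgeR without either ASCC3 replicate (adjusted p = 0.0392 and 0.0396), and the adjusted p over the 19 ran from 4.27e-13 to 0.999. It passed in each alone, with a log2 fold change of 1.64 and an adjusted p of 0.000985 in replicate 1 and of 1.02 and 0.00889 in replicate 2. The 2 4EHP libraries differed from each other by more than the 2 control libraries did.

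The same transcript was at 41.4 and 33.0 CPM with combined siRNA, against 11.2 and 16.9 CPM with ASCC3 siRNA. That log2 fold change was 1.40 (SE 0.24) and did not pass (edgeR adjusted p = 0.107). Monosome footprints rose to 82.3 and 82.6 CPM with 4EHP siRNA, against 32.1 and 29.0 CPM with control siRNA. With combined siRNA they stood at 80.0 and 73.9 CPM, against 49.2 and 46.6 CPM with ASCC3 siRNA. Both monosome changes passed in edgeR, with log2 fold changes of 1.43 (SE 0.11) and 0.69 (SE 0.11, adjusted p = 9.07e-05). In the combined pair 0.992% of all monosome transcripts passed.

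Within the 10858 transcripts the 12 largest negative fold changes were smaller and steadier than the positive ones. They ran from -1.12 to -0.73 on the log2 scale, and 3 of them passed. The larger falls of the 246-, 381- and 122-codon transcripts, of -3.68, -1.65 and -2.88, are not among the 12. Those 3 transcripts lie below the mean level of 4 on the log2 CPM scale. All 12 passed in replicate 2 alone, beside 2.23% of all transcripts as lower there, and 2 in replicate 1 alone, beside 0.0116%. The fold changes that chose the 12 come from these same libraries, so both counts are a description. In the combined siRNA libraries 11 of the 12 had a negative fold change relative to ASCC3 siRNA, while 4972 of the 10858 transcripts were above 0 there. Of the 12, 7 did not overlap, beside 25.5% of the 10858 transcripts that lay below in that pair without overlap. A 219-codon transcript stood at 40.2 and 30.9 CPM with 4EHP siRNA, against 70.7 and 64.3 CPM with control siRNA. Its edgeR adjusted p was 0.0769 in RNA-seq. It passed under 9 of the 19 alternatives with both 4EHP libraries, among them DESeq2 (adjusted p = 0.00308), limma voom (adjusted p = 0.0290) and edgeR without either ASCC3 replicate (adjusted p = 0.0374 and 0.0342), and the adjusted p over the 19 ran from 3.61e-07 to 0.999. Its monosome footprints fell to 10.8 and 12.8 CPM, against 27.9 and 28.3 CPM with control siRNA. A 164-codon transcript stood at 29.6 and 21.4 CPM, against 45.6 and 47.9 CPM, with 14.2 and 14.6 CPM in monosomes, against 34.3 and 33.7 CPM. In all, 6 of the 12 were lower in monosomes, beside 0.445% of all transcripts. Both the 771- and the 180-codon transcript, which may share reads, are among these 6.

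**Figure D5:**
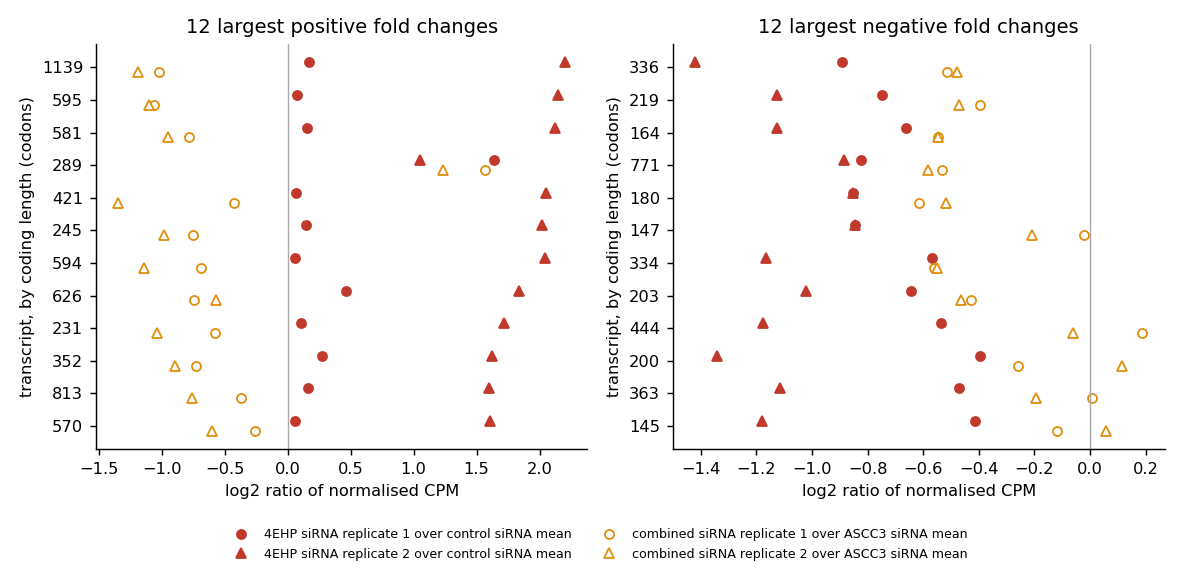
Log2 ratio of each 4EHP siRNA library to the control mean (red, filled) and of each combined siRNA library to the ASCC3 siRNA mean (orange, open) for the 12 largest positive and negative fitted fold changes; circles are replicate 1 and triangles replicate 2. Only transcripts with a mean of at least 4 on the log2 CPM scale and no overlap of 4EHP and control libraries were ranked. On the left replicate 2 stands far to the right of replicate 1 in 11 of 12 transcripts while the combined siRNA libraries lie left of 0, and only the 289-codon transcript is right of 0 in all 4 libraries.

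The widest gaps between the 4EHP replicates, among transcripts with a mean of at least 5 on the log2 CPM scale, ran from 3.70- to 5.48-fold for the 10 highest in replicate 2. Their coding lengths ran from 591 to 14508 codons, with a median of 1946. The 14508-codon transcript stood at 25.8 and 141 CPM with 4EHP siRNA, against 22.1 and 27.2 CPM with control siRNA. In ASCC3 siRNA its replicates stood at 36.0 and 124 CPM. A 2753-codon transcript stood at 152 and 739 CPM with 4EHP siRNA, against 193 and 176 CPM with control siRNA. In this transcript replicate 1 was below the controls and replicate 2 far above them.

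The 10 lowest in replicate 2 stood at 0.314 to 0.468 times replicate 1, with coding lengths of 38 to 477 codons and a median of 179.5. A 162-codon transcript had 44.4 and 13.96 CPM with 4EHP siRNA, against 41.8 CPM in both control libraries. A 163-codon transcript had 136 and 63.5 CPM, against 131 and 124 CPM. Among the 10 of each kind, ASCC3 replicate 2 differed from ASCC3 replicate 1 in the same direction in all 10. None of the 20 passed with both 4EHP libraries, and none of those tested in monosomes passed there.

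The second background gave fold changes that use none of the 4 libraries, while its tests share with them the spread estimated over all 8 libraries. In edgeR, 11 transcripts were higher and 4 lower with combined siRNA than with ASCC3 siRNA, which is 0.0331% and 0.012% of 33265, and 0.0451% together. An unadjusted p under 0.05 was reached by 3644, and DESeq2 called 52. All 15 had the same sign with 4EHP siRNA against control, and the share with the same sign over all transcripts was not computed. Taken alone, replicate 1 had that sign in all 11 higher ones and replicate 2 in 9 of the 11. All 4 lower ones had it in each replicate alone. The 4 lower ones had log2 fold changes of -3.68 to -0.39 there, and both 4EHP libraries lay below both control libraries in each, beside 24% of the 10858 transcripts. The 11 higher ones had 0.05 to 1.23, and 8 of them lay above control without overlap, beside 17.2%. The 246-, 381- and 1978-codon transcripts of the lower ones lie below the mean level of the 10858, as do some of the higher ones. The 15 calls rest on every library of that pair, since 4 and 2 remained in number without ASCC3 replicate 1 or 2 and 1 without either combined replicate. They fell to 6 without either control replicate and grew to 412 and 427 without 4EHP replicate 1 or 2.

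ENST00000398606.9, a 211-codon transcript, was among those 11. It stood at 31.5 and 29.8 CPM with 4EHP siRNA, against 20.5 and 17.9 CPM with control siRNA, and at 34.4 and 33.2 CPM with combined siRNA, against 17.8 and 19.4 CPM with ASCC3 siRNA. The log2 fold change was 0.68 after 4EHP siRNA, where it did not pass (edgeR adjusted p = 0.259), and 0.86 with combined siRNA (adjusted p = 0.0346). From control it was 0.73 in 4EHP replicate 1 alone and 0.62 in replicate 2 alone. A 488-codon transcript stood at 71.0 and 76.0 CPM with 4EHP siRNA, against 117 and 116 CPM with control siRNA, and at 55.1 and 59.1 CPM with combined siRNA, against 101 and 110 CPM with ASCC3 siRNA. It did not pass against control in edgeR (adjusted p = 0.0816) and passed in the combined pair (adjusted p = 0.00607). It also passed with 4EHP siRNA against ASCC3 siRNA (adjusted p = 0.0247). Against control it passed under 5 of the 18 alternatives with both 4EHP libraries, among them DESeq2 (adjusted p = 0.00751) and limma voom (adjusted p = 0.0423). The adjusted p over the 18 ran from 1.18e-05 to 0.999. Its log2 fold change from control was -0.71 in replicate 1 alone and -0.64 in replicate 2 alone.

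Over the 10858 transcripts the fitted fold changes of the 2 pairs, which share no library, had a Pearson r of -0.13 and a Spearman rho of -0.04. This is a description across transcripts of 1 fit. 4EHP replicate 2 is added in the first pair and ASCC3 replicate 2 is subtracted in the second. The replicate differences of those 2 groups correlated at a Pearson r of 0.72, and their part in these coefficients was not tested. The difference between the pairs was tested for each transcript, and 0 of 33265 passed in edgeR or in DESeq2, while 2543 had an unadjusted p under 0.05. Without 4EHP replicate 1 the edgeR count was 2098.

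A mean of both 4EHP siRNA effects, with and without ASCC3 siRNA, was tested as an addition chosen after seeing the data. It called 30 transcripts higher (0.0902%) and 35 lower (0.105%), 0.195% of 33265, among them all 6 of the first comparison, with which it shares 4 libraries. The lower ones had a median of 300 codons and a median log2 change of -0.68, and both 4EHP libraries lay below both control libraries in all 35, beside 24% of the 10858 transcripts. The higher ones had 127 to 4117 codons and a median log2 change of 0.61, and 28 of 30 lay above control without overlap, beside 17.2%. These RNA-seq values chose the 65 and are a description. Some of the 65 lie below the mean level of the 10858. A pair of the higher ones had identical counts in all 8 libraries and cannot be told apart. The 289-codon transcript (adjusted p = 0.0118), the 211-codon ENST00000398606.9 (adjusted p = 0.00264) and the 488-codon transcript (adjusted p = 0.000360) were among them.

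The monosome libraries, which the RNA-seq choice did not use, moved the same way for many of these 65. Of the 35 lower ones, 34 were tested in monosomes, where 21 were lower and 0 higher with 4EHP siRNA, with a median log2 fold change of -0.64. Of the 30 higher ones, 28 were tested, and 9 were higher and 0 lower, with a median of 0.36. Over all monosome transcripts 0.445% were lower and 0.360% higher. The 65 calls fell to 11 and 9 without control replicate 1 or 2, to 4 and 15 without combined replicate 1 or 2, and to 23 and 24 without ASCC3 replicate 1 or 2. They grew to 361 and 266 without 4EHP replicate 1 or 2.

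Against ASCC3 siRNA, which is not a control and differs in its own target too, 497 transcripts were higher (1.49%) and 190 lower (0.571%) with 4EHP siRNA, 2.07% of those tested. Their log2 fold changes relative to control siRNA were small, with medians of 0.06 and -0.21. The count was 148 and 221 without ASCC3 replicate 1 or 2 and 1373 and 1575 without 4EHP replicate 1 or 2. It was 245 and 249 without control replicate 1 or 2 and 307 and 308 without combined replicate 1 or 2.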

How the data were processed

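RNA was measured by RNA-seq, and by monosome and disome footprints for comparison, in siRNA-transfected HEK293 Flp-In T-REx cells. Per the labels' protocols, RNA-seq used a stranded kit for total RNA. Whether counting used the strand is not given in the sources used here, so overlapping and antisense genes and near-identical copies may share reads. The deposited files hold raw whole-number counts per transcript with no header. Build hg38 and the tools UMI-tools 1.1.1 and STAR 2.7.0a are recorded in the submitters' processing notes. The counter and annotation were not given in the sources used here.

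Groups came from the labels, and no library was left out of the fit of 8 RNA-seq libraries. Rows with a numeric coding length were used; the other 126981 rows of each RNA-seq file hold 0 counts. Lengths are those of the footprint files, 10 codons above the RNA-seq ones. Transcripts within 40 lines were joined where their replicate differences correlated above 0.7, checked on simulated data. No replicate pair of the 4 RNA-seq groups agreed within counting error (chi-square of 1.97 to 13.8 for each degree of freedom).

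Counts were tested with edgeR 4.0.16 (quasi-likelihood, TMM, minimum count 10, two-sided, adjusted p under 0.05 over all transcripts tested), with DESeq2 1.42.0 and limma 3.58.1 as alternatives, in R 4.3.3. Each 4EHP replicate alone was fitted without the other one. Monosomes were fitted over 10 libraries; disomes, with 1 library in a group, were not tested. The edgeR fit was tested on simulated data.

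The text names every transcript that passed, the 12 largest positive and negative fold changes without overlap at a mean log2 CPM of at least 4, examples of the 10 largest replicate ratios each way at a mean of at least 5, and calls of the other contrasts. The 211- and 488-codon transcripts were chosen after their values were seen. The members and lists were chosen with earlier results of these data known. No table used here pairs the transcript IDs with genes, so the planned gene lists, cell markers and sequences could not be applied. The alternatives with a covariate from the replicate differences, a crossed block, the mean effect and the fit without both deviating libraries were added after seeing the data.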

Additional observations from a re-analysis of the deposited data

Results flagged for a closer look

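For 4 of the 12 largest positive fold changes, both 4EHP siRNA libraries lay above both control siRNA libraries while both combined siRNA libraries lay below both ASCC3 siRNA libraries. Over the 10858 transcripts with a mean of at least 4 on the log2 CPM scale, 25.5% lay below in the second pair, so 4 of 12 is near the background. The difference of the log2 fold changes, the combined pair minus the 4EHP pair, was -2.61 for the 1139-codon transcript, -2.51 for a 595-codon one, -2.22 for a 245-codon one and -2.24 for a 594-codon one. None of these differences passed in edgeR. In the 1139-codon transcript 4EHP replicate 2 stood at 68.4 CPM, against 16.7 CPM in 4EHP replicate 1, and ASCC3 replicate 2 at 49.1 CPM, against 17.0 CPM in ASCC3 replicate 1. The part of these 2 libraries in the difference was not tested.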

How the results depend on the processing

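The 6 calls of 4EHP siRNA against control became 166 (99 higher, 67 lower) without the count filter, 13 in DESeq2, 10 in limma voom, 10 with the replicate block and coding length offsets, 26 with isoforms not joined, 71 (25 higher, 46 lower) with the covariate and 1 in the 4 libraries alone. Leaving out 1 library gave 2 to 1699, and leaving out both deviating ones 45. Replicate 1 alone, with 5 calls, gave 20 without the filter, 13 in voom, 25 with isoforms not joined, 98 with the covariate and 465 in its 3 libraries alone, and 3 to 49 with 1 library left out. Replicate 2 alone, with 1699 calls, gave 3118 without the filter, 1050 in DESeq2, 3220 in voom, 3896 with isoforms not joined, 13 with the covariate and 6968 in its 3 libraries alone, and 152 to 4598 with 1 library left out. The 15 calls of combined against ASCC3 siRNA became 380 without the filter, 5 at a minimum count of 50, 52 in DESeq2, 57 in voom, 27 with length offsets, 43 with isoforms not joined and 1086 with the covariate. They ranged from 1 to 427 with 1 library left out and were 712 without both deviating ones. The 687 calls of 4EHP against ASCC3 siRNA became 1537, 326, 1840 and 4290 without the filter, in voom, with isoforms not joined and with the covariate, 148 to 1575 with 1 library left out and 2231 without both. The interaction had 329 calls without the filter, and 0 to 2098 with 1 library left out. The 65 calls of the mean effect became 315 without the filter, 124 in DESeq2, 116 in voom, 111 with length offsets, 113 with offsets and block, 197 with isoforms not joined, 1423 with the covariate, 4 to 361 with 1 library left out and 960 without both. Differences of count shares, in percentage points and from the shortest to the longest class, ran from -0.78 to 0.12, from -1.71 to 0.33, from -0.25 to 0.28 and from -0.20 to 2.21 with 1 library left out. The cause of these shifts was not tested.

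The labels give all groups the replicate numbers 1 and 2 without saying what they share, so the numbers were not taken as a pairing. With the replicate block the counts were 7 for 4EHP against control, 29 for combined against ASCC3 siRNA (34 with length offsets), 713 for 4EHP against ASCC3 siRNA, 0 for the interaction, 82 for the mean effect, 3 for replicate 1 alone (3 with offsets) and 462 for replicate 2 alone (533 with offsets). A crossed pairing of the 4 libraries gave 1 higher and 2 lower.

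No fold change of the 6, of the 12 largest each way or of the 211- and 488-codon transcripts reversed. Of the 20 largest replicate ratios, 14 reversed without 4EHP replicate 2 and without both deviating libraries, and 6 with the covariate. The 2753-codon one ran from -0.27 to 1.98 on the log2 scale with 1 library left out and was -0.27 without both and -0.16 with the covariate. The 162-codon one ran from -1.60 to 0.10 and was 0.10 without both. The 163-codon one ran from -1.02 to 0.11 and was 0.11 without both and 0.0090 with the covariate. Of the 132 alternative values for the 6 passed transcripts, 102 kept the call and 30 lost it, and the others of the 12 each way gained one in 51 of 459. RNA-seq depth limits the 122-codon transcript most, at 6 and 7 counts with 4EHP siRNA.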
